A study of Mus musculus with 92 samples.

Results

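Retinoid metabolism was followed through 8 genes: Rbp2, Bco1, Lrat, Adh1, Rdh7, Dhrs3, Aldh1a1 and Cyp26b1. They were found by name, 8 of 8, among the 54532 genes of each of 4 tables of read counts. The genes were chosen from earlier results of these same libraries. Which comparison put each gene on the list is not recorded, except that Adh1 had been named for its fall in flox/flox spheroids. The members' values are therefore given as a description, and how many of them pass a threshold is not independent evidence of a direction.

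The 92 mouse RNA-seq libraries form 21 groups, built around deletion of Eif4g2, a translation initiation factor, by the tamoxifen-dependent recombinase CreER. Tissue came from Eif4g2(flox/flox) and Eif4g2(flox/+) mice, all given tamoxifen, so the flox/+ controls can lose 1 of their 2 copies. Rosa26(CreER), active in cell types throughout the body, gave crypts from 4 flox/flox and 5 flox/+ mice and villi from 5 and 5 mice on day 9. Vil1(CreER), active in the intestinal epithelium, gave crypts from 3 flox/flox and 4 flox/+ mice and villi from 6 and 4 mice at month 3, and no label gives an age in either set. All cultures carried Rosa26(CreER) and grew in ENR medium (EGF, Noggin and R-spondin). In the first set of small intestinal organoids, 3 flox/flox lines received DMSO or 0.5 uM 4-hydroxytamoxifen (4-OHT) for 24 h and were collected on day 6. In the second set, 4 flox/flox, 4 flox/+ and 4 +/+ cultures all received 4-OHT and there was no DMSO arm. Fetal intestinal spheroids, grown from fetal gut, came as 6 flox/flox and 5 flox/+ lines, each with DMSO and with 4-OHT, on day 6. A-485, which blocks the acetyltransferase activity of p300 and CBP on histones, was given for 4 days at 3, 5 or 10 uM, or DMSO in its place, to 4 organoid lines without 4-OHT, of which 1 was +/+ and the others flox/flox.

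Enterocytes take up dietary retinol and provitamin A carotenoids. Bco1 cleaves beta-carotene to retinaldehyde, Rbp2 binds retinol and retinaldehyde inside the enterocyte, and Lrat esterifies retinol for storage and export. Adh1 and Rdh7 belong to the families that oxidise retinol to retinaldehyde, Dhrs3 reduces retinaldehyde back to retinol, Aldh1a1 oxidises retinaldehyde to retinoic acid, and Cyp26b1 breaks retinoic acid down. On GRCm38 the members lie at chr9:98486115-98509781 (Rbp2), chr8:117095854-117133720 (Bco1), chr3:82892579-82903973 (Lrat), chr3:138260991-138290698 (Adh1), chr10:127884028-127888817 (Rdh7), chr4:144892827-144928209 (Dhrs3), chr19:20492715-20643462 (Aldh1a1) and chr6:84571414-84593908 (Cyp26b1), all protein-coding genes. Retinoic acid acts through heterodimers of RAR and RXR nuclear receptors. In the intestine its targets include Isx, a transcription factor that represses Bco1.

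Nuclear receptors of this class bind repeats of the core motif AGGTCA. The 250 bases before the RefSeq start were searched on both strands for single core motifs and for direct repeats with spacers of 1, 2 or 5 bases. The promoters of 3 members are shown, that of Bco1 because it alone among the members held a repeat, that of Rbp2 for its single core motif, and that of Lrat as one with none. They lie on GRCm38.p6 at chr8:117095615-117095864 (plus strand), chr9:98490287-98490536 (plus) and chr3:82903975-82904224 (minus). Capitals mark AGGTCA where it lies on the opposite strand, so it reads TGACCT here.
Bco1: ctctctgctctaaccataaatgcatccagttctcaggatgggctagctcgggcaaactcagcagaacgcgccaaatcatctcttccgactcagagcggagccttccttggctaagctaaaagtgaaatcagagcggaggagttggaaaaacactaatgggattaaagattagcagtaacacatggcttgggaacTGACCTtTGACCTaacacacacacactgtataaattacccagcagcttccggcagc
Rbp2: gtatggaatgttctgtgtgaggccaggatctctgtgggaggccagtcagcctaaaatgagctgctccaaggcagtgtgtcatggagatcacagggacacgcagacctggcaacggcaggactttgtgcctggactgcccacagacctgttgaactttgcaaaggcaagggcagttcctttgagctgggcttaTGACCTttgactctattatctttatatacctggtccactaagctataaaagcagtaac
Lrat: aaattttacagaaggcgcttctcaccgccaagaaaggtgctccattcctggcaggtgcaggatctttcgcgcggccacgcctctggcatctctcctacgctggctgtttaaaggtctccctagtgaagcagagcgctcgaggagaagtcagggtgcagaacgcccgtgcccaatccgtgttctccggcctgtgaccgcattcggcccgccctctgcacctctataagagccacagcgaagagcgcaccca
In Bco1 the core motifs lay at -56 to -51 and -49 to -44 from the start, spaced by 1 base, an arrangement found in 11 of 32851 promoters (0.0335%). In Rbp2 the core motif lay at -58 to -53, and in Rdh7, the remaining member with one, at -105 to -100. Single core motifs stood in 14% of all promoters. Repeats with 2 and with 5 bases between the core motifs stood in 3 promoters each (0.00913%) and in 0 of the 8 members. These matches describe letters and not bound sites, and no binding was measured.

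Libraries held 8652040 to 37611126 counts. Levels are CPM, counts per mega-count of library size, scaled by TMM over all 92 libraries. Eif4g2 RNA fell in all 7 comparisons that delete both copies, by 0.99 on the log2 scale in Vil1(CreER) crypts to 2.82 in flox/flox spheroids, and was not called at any dose of A-485. In Rosa26(CreER) crypts the mitochondrial share of counts was 13.7% to 25.2% in flox/flox and 6.24% to 12.4% in flox/+ libraries, and in Vil1(CreER) crypts 30.4% to 40.3% and 17.5% to 30.8%. Y-linked Ddx3y exceeded 1 CPM in all 10 flox/+ libraries of Rosa26(CreER) mice but in 1 of 4 crypt and 2 of 5 villus flox/flox libraries. The part of these in the results was not tested beyond a fit with the Ddx3y class as a term. Stromal markers (8 genes) summed to 44.9 to 2758 CPM in flox/flox and 27.8 to 1100 CPM in flox/+ Rosa26(CreER) crypts, and to at most 1.29 CPM in the organoids. The labels number the animals and name the culture lines but do not say which lines share a mouse or litter (several spheroid lines share the first part of their name), so p-values measure the spread between these samples. In bulk samples fewer cells of a type cannot be told apart from less RNA per cell.

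In flox/+ tissue, the control genotype, 6 members were higher in villi than in crypts in both mouse sets. Per kilobase of gene length, Rbp2 was the highest member in 19 of the 21 groups, at 6496 CPM per kb in Rosa26(CreER) flox/+ villi. Adh1 was highest in the other two, the DMSO and 3 uM arms of the A-485 series. Bco1, Lrat or Cyp26b1 was lowest in every group. Between flox/+ villi and crypts of the same mice, 6 of the 7 members tested were called in Rosa26(CreER) mice, where 77.1% of all genes tested were called, and 7 of 7 in Vil1(CreER) mice, where 67.9% were. The differences ran from a log2 value of 0.99 (Dhrs3) to 4.41 (Rbp2) in the first and from 1.11 (Lrat) to 3.95 (Rbp2) in the second. Bco1 was not called in Rosa26(CreER) mice (log2 0.49 ± 0.31 SE, or 0.64 and called without the flox/+ villi of replicate 4), and its call in Vil1(CreER) mice was lost without the flox/+ villi of replicate 1 (edgeR adjusted p 0.0594). Cyp26b1 had too few reads in flox/+ tissue to be tested. Enterocyte markers moved the same way, with 9 of 9 called higher in villi in both sets.

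Members were called lower in each of the 7 comparisons that delete both Eif4g2 copies, from 2 of 8 to 7 of 8, and 1 call in these comparisons was a rise. Counts of members called stand here beside the share of all genes called in either direction in the same edgeR fit (adjusted p under 0.05). In Rosa26(CreER) crypts 2 of 8 members fell (20.2% of all genes called) and the members' median log2 difference was -0.27, and in villi 4 fell (33.2%) with a median of -1.11. Without flox/flox replicate 5 the counts called were 4 in crypts and 7 in villi. In those fits all genes called went from 3198 to 4732 in crypts and from 4504 to 4872 in villi. In Vil1(CreER) crypts 5 fell (29.3%) with a median of -1.53. Without flox/+ replicate 2, 8 were called there, and all genes called went from 4960 to 5978. In the villi of these mice 6 fell and Cyp26b1 rose (42.5%) with a median of -1.22. In organoids 7 fell in the first set (35.4%, median -1.70) and 5 in the second, against flox/+ (46.8%, median -0.83). In flox/flox spheroids 5 fell (19.1%, median -1.96). With the line as a block 8 of 8 were called there, of which Cyp26b1 was higher. The 19.1% does not apply to that fit, in which many more of all genes were called. Without a block the count was 2 on leaving out the DMSO arm of line 1 or 5 or the 4-OHT arm of line 2 or 6. It was 3 without the 4-OHT arm of line 4 or 5. The median over all genes tested lay between -0.02 and 0.05 in these 7 comparisons.

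Called falls were counted over the same 7 comparisons for each member. Bco1 was called lower in 7, Lrat and Dhrs3 in 6 each, Adh1 in 5, Rdh7 in 4, Rbp2 in 3 and Aldh1a1 in 2. The mean was lower after deletion in 7 of 7 comparisons for Adh1, Rdh7, Bco1 and Lrat. Cyp26b1 was called once lower, in organoids of the first set, and once higher, in Vil1(CreER) villi. These counts are part of what chose the list and are read no further.

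**Figure D1:**
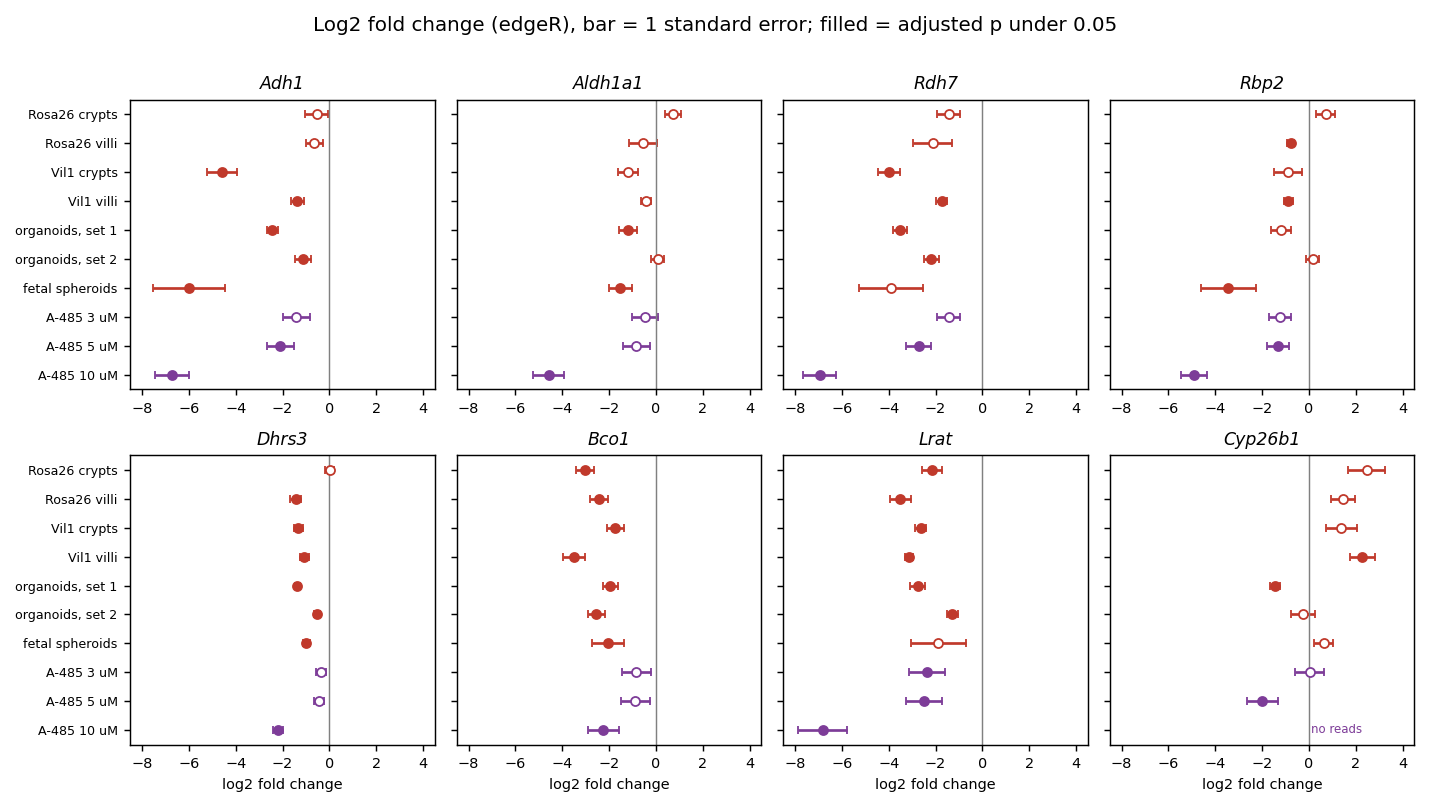
Log2 difference (edgeR, ± SE) of each of the 8 members in the comparisons named on the axis, with filled symbols for adjusted p under 0.05. Bco1 is filled and below 0 in the 7 deletion comparisons, and for the 7 members drawn at 10 uM A-485 that value is the lowest of the 3 doses. Cyp26b1 is not drawn at 10 uM, where it had no reads.

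Bco1, the carotene-cleaving oxygenase, was scarce in all groups and lower in every flox/flox tissue library than in any flox/+ library of the same compartment and mouse set. In Rosa26(CreER) crypts it was 2.38, 1.64, 2.50, 2.02 and 2.41 CPM in flox/+ and 0.0886, 0.394, 0.315 and 0.262 CPM in flox/flox libraries, an 8.08-fold difference (log2 -3.01 ± 0.39 SE). In the villi of these mice it was 3.88, 4.80, 3.09, 1.30 and 2.40 CPM against 0.278, 0.929, 0.541, 0.542 and 0.631 CPM, 5.39-fold lower. The genotypes did not overlap in either compartment. Vil1(CreER) crypts held 1.90, 2.24, 2.48 and 1.14 CPM in flox/+ and 0.536, 0.636 and 0.603 CPM in flox/flox libraries, and villi 7.60, 4.21, 2.98 and 2.99 CPM in flox/+ against 0.180 to 0.776 CPM (median 0.285) in 6 flox/flox libraries. The fold was 3.34 in crypts and 11.3 in villi, and the difference between these folds was not called (log2 -1.75 ± 0.64 SE, edgeR adjusted p 0.0714, or 0.0271 and 0.0485 without flox/flox villi of replicate 1 or 3).

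Bco1 also fell in both organoid sets. It was 2.32, 2.61 and 1.83 CPM with DMSO and 0.784, 0.583 and 0.387 CPM with 4-OHT in the first set, 3.85-fold lower and lower in each of 3 lines. In the second set it was 1.86, 1.59, 2.28 and 2.15 CPM in flox/+ and 0.488, 0.0535, 0.394 and 0.396 CPM in flox/flox cultures, 5.81-fold lower. The same flox/+ cultures stand in the next comparison. Loss of 1 copy, flox/+ against +/+, left a log2 difference of -0.07 ± 0.29 SE. In spheroids Bco1 fell 4.12-fold with 4-OHT (log2 -2.04 ± 0.68 SE), lower in 6 of 6 lines, with overlapping groups. Its call there was lost without each of 7 libraries in turn, the DMSO arms of lines 1, 4, 5 and 6 and the 4-OHT arms of lines 2, 3 and 6 (edgeR adjusted p up to 0.0802), and held with the line as a block.

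**Figure D2:**
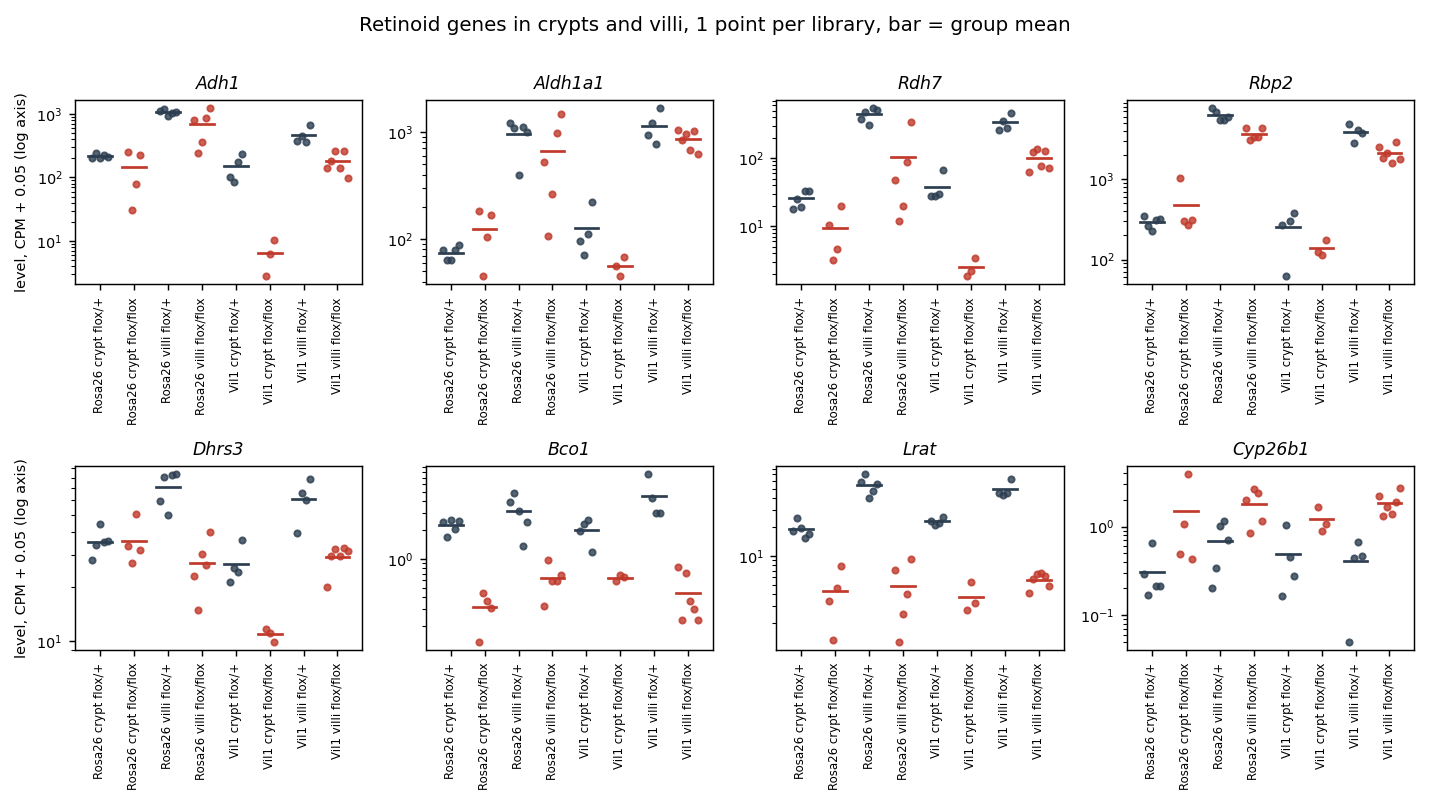
CPM + 0.05 (log scale) of each member in every crypt and villus library, by mouse set and genotype, with the group mean as a line. Bco1 and Lrat show no overlap between flox/flox and flox/+ in the 4 tissue comparisons, whereas Aldh1a1 overlaps in 3 of them.

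Lrat, which forms retinyl esters, fell in both tissue compartments of both mouse sets. Rosa26(CreER) villi held 58.4, 70.7, 39.5, 46.6 and 55.3 CPM in flox/+ and 7.16, 1.24, 2.46, 3.97 and 9.18 CPM in flox/flox libraries, 11.4-fold lower (log2 -3.50 ± 0.46 SE). Vil1(CreER) villi held 45.3, 42.9, 44.9 and 62.9 CPM against 4.09 to 6.63 CPM (median 5.92), 8.76-fold lower (log2 -3.13 ± 0.17 SE). No flox/flox library reached the lowest flox/+ library in either set. In crypts the values were 15.1 to 24.8 CPM against 1.30 to 7.75 CPM in Rosa26(CreER) mice (4.46-fold) and 21.1 to 25.3 CPM against 2.68 to 5.30 CPM in Vil1(CreER) mice (6.2-fold). With the Ddx3y class as a term the Rosa26(CreER) crypt call was lost (edgeR adjusted p 0.0754).

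Lrat was scarcer in every culture group, with means up to 6.27 CPM, than in flox/+ villi. The DMSO organoids of the A-485 series overlapped the flox/flox villi of both mouse sets. Other organoid groups, among them the first set with DMSO, overlapped the Rosa26(CreER) flox/flox villi, whose libraries began at 1.24 CPM. In the first organoid set it was 2.58, 2.61 and 3.62 CPM with DMSO and 0.304, 0.361 and 0.619 CPM with 4-OHT, 6.81-fold lower. In the second it was 3.18, 3.72, 3.67 and 3.02 CPM in flox/+ and 1.25, 0.856, 2.02 and 1.44 CPM in flox/flox cultures, 2.43-fold lower. Neither pair of groups overlapped. In spheroids it never exceeded 1.62 CPM, and 3 of 6 flox/flox 4-OHT libraries had 0 reads, which allows up to 0.177 CPM. The spheroid difference was not called (log2 -1.88 ± 1.18 SE), and was with the line as a block (log2 -2.64) or without the 4-OHT arm of line 1 (-3.85), the library at 0.660 CPM where the other 5 held at most 0.101 CPM.

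Rbp2, the retinol-binding protein of enterocytes, was the most abundant member per kilobase and fell in villi of both sets by under 2-fold. It was 7624, 6872, 5402, 5453 and 5896 CPM in flox/+ and 4371, 3121, 3356, 3337 and 4354 CPM in flox/flox Rosa26(CreER) villi, 1.73-fold lower without overlap. Vil1(CreER) villi held 4810, 2830, 4081 and 3783 CPM against 1604 to 2868 CPM (median 1997), 1.84-fold lower, with 1 pair of libraries overlapping. Beside these falls, the summed enterocyte markers (9 genes) were 69130 to 94710 CPM in flox/+ and 59070 to 96460 CPM in flox/flox Rosa26(CreER) villi, and 44150 to 54420 against 36340 to 65290 CPM in Vil1(CreER) villi, where 1 marker rose and 1 fell in the first and 3 fell in the second. In Rosa26(CreER) crypts Rbp2 was 229 to 345 CPM in flox/+ and 1032, 299.8, 268 and 307 CPM in flox/flox libraries. The library at 1032 CPM, replicate 1, also had the highest enterocyte sum of its group (9463 against 3183 to 3636 CPM), and without it the log2 difference of 0.72 became -0.00192. With the Ddx3y class as a term that crypt difference was 1.84 and called. In Vil1(CreER) crypts Rbp2 was 267, 62.1, 299 and 384 CPM in flox/+ and 123, 115 and 177 CPM in flox/flox libraries, called without flox/+ replicate 2 (log2 -1.24) and not with it.

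The villus and crypt effects of Rosa26(CreER) deletion differed for Rbp2 (log2 -1.39 ± 0.43 SE) and Dhrs3 (-1.35 ± 0.32 SE), 2 of 8 members where 11.5% of all genes were called. With the animal as a block neither was called (edgeR adjusted p 0.0967 and 0.052). The Rbp2 difference was -0.75 without flox/flox crypts of replicate 1 and still called. Its call was lost without each of 12 libraries in turn, all 5 flox/+ crypts, flox/+ villi of replicates 1, 2, 4 and 5, and flox/flox villi of replicates 2, 3 and 4 (edgeR adjusted p up to 0.0771). In culture Rbp2 was lower with 4-OHT in the first organoid set (491, 455 and 938 CPM against 162, 232 and 433 CPM). That difference was not called (log2 -1.19 ± 0.41 SE) but was with the line as a block (edgeR adjusted p 0.000977) or without the 4-OHT arm of line 3 (0.0104). In the second set the flox/flox and flox/+ means were 366 ± 93.7 and 327 ± 118 CPM (SD, n = 4 each), and the log2 difference was 0.16 ± 0.28 SE.

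Adh1 and Rdh7, from the 2 families of retinol-oxidising enzymes, showed their lowest tissue levels in Vil1(CreER) flox/flox crypts. Adh1 was 102, 85.8, 176 and 234 CPM in flox/+ and 2.73, 6.15 and 10.1 CPM in flox/flox crypts, 24.1-fold lower (log2 -4.59 ± 0.64 SE). Rdh7 was 27.6, 27.6, 30.1 and 66.8 CPM against 1.80, 2.18 and 3.36 CPM, 15.9-fold lower (log2 -3.99 ± 0.46 SE). Neither gene's groups overlapped. In the villi of these mice Adh1 was 381, 449, 362 and 669 CPM against 97.6 to 265 CPM (median 162), 2.58-fold lower, and Rdh7 262, 348, 275 and 460 CPM against 63.2 to 139 CPM (median 101), 3.36-fold lower. The crypt effect was larger than the villus effect for Adh1 (log2 3.24 ± 0.61 SE) and Rdh7 (2.26 ± 0.50 SE), the 2 of 8 members called in that comparison (15.5% of all genes). In Vil1(CreER) crypts the summed enterocyte markers were 1793 to 4150 CPM in flox/+ and 972 to 2337 CPM in flox/flox libraries, with 4 of 9 markers called lower, and the mitochondrial share was also higher in flox/flox libraries (means 35.7% and 23.3%). The part of either in these values was not tested.

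In Rosa26(CreER) tissue the flox/flox libraries spread over a wider range than the flox/+ libraries for both genes. Adh1 was 200 to 242 CPM in flox/+ crypts and 255, 30.8, 78.2 and 226 CPM in flox/flox crypts, and 920 to 1185 CPM against 796, 246.5, 366, 855 and 1230 CPM in villi. Rdh7 was 308 to 541 CPM in flox/+ villi and 47.1, 12.1, 19.6, 88.0 and 347 CPM in flox/flox villi. The groups overlapped, and none of these differences was called. Without the flox/flox villi of replicate 5, the highest library of its group for both genes, Rdh7 (log2 -3.43) and Adh1 (-0.95) were called lower in villi. In crypts Rdh7 was 18.2 to 33.5 CPM in flox/+ and 10.5, 3.11, 4.61 and 19.8 CPM in flox/flox libraries, called with DESeq2 and, among fits that leave out 1 library, without flox/flox replicate 5 (log2 -2.07). Rdh7 shares 12.9% of its 50-base stretches with other transcripts, mostly the pseudogene Rdh18-ps, Aldh1a1 shares 3.06% with Aldh1a7, and Adh1 2.11%, so reads of these regions could be split or assigned elsewhere.

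In organoids Adh1 was 1082, 996 and 1687 CPM with DMSO and 209, 268 and 218 CPM with 4-OHT, 5.43-fold lower. Rdh7 was 90.5, 97.1 and 160 CPM against 8.12, 12.7 and 9.62 CPM, 11.5-fold lower. All 8 members were lower with 4-OHT in 3 of 3 lines of this set. Beside them the enterocyte sum was 8819 to 12100 CPM with DMSO and 3862 to 5732 CPM with 4-OHT, and 8 of its 9 markers fell. In the second set Adh1 was 680, 552, 406 and 356 CPM in flox/+ and 120, 167, 332 and 308 CPM in flox/flox cultures, 2.16-fold lower, and Rdh7 81.0, 58.5, 35.2 and 32.5 CPM against 13.1, 9.04, 11.4 and 12.2 CPM, 4.53-fold lower. The Adh1 call was lost without flox/flox culture 2 or flox/+ culture 1 (edgeR adjusted p 0.0574 and 0.0593). Enterocyte sums in this set were 3566 to 7131 CPM in flox/+ and began at 3376 CPM in flox/flox cultures, whose maximum lay under that of flox/+, and 4 of the 9 markers fell and 0 rose.

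Dhrs3, the retinaldehyde reductase, fell in 6 of the 7 deletion comparisons by 1.45-fold to 2.72-fold. Rosa26(CreER) villi held 59.5, 80.5, 49.4, 82.7 and 83.8 CPM in flox/+ and 22.9, 14.9, 30.3, 26.2 and 40.1 CPM in flox/flox libraries, 2.72-fold lower. Vil1(CreER) crypts held 21.2, 25.4, 24.1 and 36.0 CPM against 11.7, 11.1 and 9.90 CPM, 2.51-fold lower. Neither pair of groups overlapped. The exception was Rosa26(CreER) crypts, at 35.4 ± 5.82 CPM in flox/+ (SD, n = 5) and 35.6 ± 10.2 CPM in flox/flox libraries (SD, n = 4). In organoids Dhrs3 was 72.3, 71.3 and 86.8 CPM with DMSO and 29.8, 32.6 and 26.9 CPM with 4-OHT, and in the second set 44.4, 40.1, 32.8 and 36.2 CPM in flox/+ against 21.6, 23.5, 30.4 and 30.2 CPM in flox/flox cultures.

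Aldh1a1, which makes retinoic acid, was called lower in flox/flox spheroids and in organoids of the first set, and in no tissue comparison. Vil1(CreER) flox/+ villi held 939, 1216, 766 and 1656 CPM and flox/flox villi 627 to 1035 CPM (median 896), with a log2 difference of -0.43 ± 0.22 SE. Vil1(CreER) crypts held 96.2, 71.6, 112 and 224 CPM against 56.0, 45.2 and 67.5 CPM without overlap, a difference that was not called (log2 -1.20 ± 0.42 SE) in the edgeR fit but was with DESeq2 and without flox/+ replicate 2 or 4. The villus difference was called without flox/+ replicate 3 (log2 -0.60). In Rosa26(CreER) mice Aldh1a1 was 63.0 to 87.2 CPM in flox/+ and 181, 45.0, 105 and 166 CPM in flox/flox crypts (log2 0.74 ± 0.33 SE), called higher without flox/flox replicate 3 (1.01). Organoids of the first set held 489, 467 and 945 CPM with DMSO and 172, 267 and 394 CPM with 4-OHT, 2.29-fold lower. That call was lost without each of 5 of the 6 libraries, all but the 4-OHT arm of line 3 (edgeR adjusted p up to 0.113).

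Cyp26b1, the retinoic acid hydroxylase, had a higher mean in flox/flox than in flox/+ libraries in all 4 tissue comparisons, and 1 of them was called. Vil1(CreER) villi held 0, 0.397, 0.617 and 0.412 CPM in flox/+ and 1.26 to 2.69 CPM (median 1.72) in flox/flox libraries, 4.85-fold higher without overlap (log2 2.28 ± 0.53 SE). Beside this rise the stromal sum was 0.823 to 2.48 CPM in flox/+ and 1.58 to 16.6 CPM in flox/flox villi. Of the 4 stromal markers tested there, 2 were called higher, and their part in the Cyp26b1 values was not tested. In Rosa26(CreER) mice the Cyp26b1 means were 1.44 against 0.256 CPM in crypts and 1.77 against 0.634 CPM in villi, neither called (edgeR adjusted p 0.0535 and 0.0523). The crypt difference was called without flox/flox replicate 1 or 5 or flox/+ replicate 3, and the villus difference without flox/flox replicate 2 or 5 or flox/+ replicate 3 or 4. In Vil1(CreER) crypts the values were 0.115, 1.00, 0.401 and 0.223 CPM against 1.61, 0.848 and 1.03 CPM, called without flox/+ replicate 2 (log2 2.19) and not with it. In the first organoid set, where Cyp26b1 was most abundant, it was 38.9, 38.7 and 24.2 CPM with DMSO and 11, 15.4 and 10.8 CPM with 4-OHT, 2.74-fold lower. In the second set it was 5.83 to 12.6 CPM in flox/+ and 3.47 to 11.1 CPM in flox/flox cultures, and was not called.

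Fetal spheroid lines differed from one another over a wide range before any deletion. With DMSO, Adh1 ran from 51.0 to 590 CPM (median 87.3) over 6 flox/flox lines and from 1.66 to 202 CPM (median 31.3) over 5 flox/+ lines, while Dhrs3 ran from 31.7 to 49.9 CPM and from 36.5 to 46.7 CPM. With 4-OHT in flox/flox lines Adh1 ran from 0 to 12.8 CPM (median 0.272), with 0 reads in 2 lines, which allows up to 0.136 CPM. Adh1 was lower in 6 of 6 lines (63.3-fold in the fit, log2 -5.99 ± 1.54 SE, or -5.20 to -7.38 without the DMSO or the 4-OHT arm of line 1). Dhrs3 was 31.7 to 49.9 CPM with DMSO and 16.1 to 24.6 CPM with 4-OHT (median 21.4) without overlap, 1.98-fold lower. It was the 1 member of 8 whose 4-OHT effect differed between flox/flox and flox/+ lines (log2 -0.86 ± 0.20 SE), where 1.62% of all genes were called, and that call was lost without each of 9 of the 22 libraries, the DMSO arms of flox/flox lines 1 and 2 and flox/+ lines 1 to 4, and the 4-OHT arms of flox/flox line 6 and flox/+ lines 4 and 5 (edgeR adjusted p up to 0.0737). With the line as a block Adh1 was called there too. The 1.62% does not apply to that fit, in which many more of all genes were called.

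Rdh7 was lower with 4-OHT in 5 of 6 flox/flox lines, from 6.79 to 70.2 CPM (median 23.2) with DMSO to 0 to 8.85 CPM (median 0.114) with 4-OHT, and was called with the line as a block (log2 -5.22), without the 4-OHT arm of line 3 (-5.56) or with DESeq2, and not in the edgeR fit of all lines without a block (-3.90 ± 1.38 SE). Rbp2 went from 35.8 to 750 CPM (median 131) to 0.645 to 88.7 CPM (median 4.01), and Aldh1a1 from 106 to 669 CPM (median 230) to 49.5 to 207 CPM (median 94.3). Each was lower in 5 of 6 lines, the exception being line 3. Without a block both calls were lost without each of 6 libraries, the DMSO arms of lines 1 and 5 and the 4-OHT arms of lines 2, 4, 5 and 6 (edgeR adjusted p up to 0.117), and the Rbp2 difference was -4.22 in place of -3.44 without the 4-OHT arm of line 1. The enterocyte sum was 705 to 7932 CPM with DMSO and 17.5 to 5552 CPM with 4-OHT. In line 3 it went from 2983 to 5552 CPM and in the other 5 lines it was lower with 4-OHT, and its part in these values was not tested. Cyp26b1 was higher with 4-OHT in 5 of 6 lines, 10.7 to 41.4 CPM (median 22.4) against 5.89 to 24.2 CPM (median 14.4), called with the line as a block (log2 0.65).

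In the comparisons that delete 1 copy no member was called. In flox/+ spheroids 0 of 8 members and 0% of all genes were called, with edgeR and with DESeq2 (15 genes at an unadjusted p under 0.05 with edgeR). Eif4g2 itself was not called in that fit, at means of 459 CPM with 4-OHT and 808 CPM with DMSO without overlap, so the lack of calls does not show a lack of effect. Adh1, Rdh7, Dhrs3 and Bco1 were lower with 4-OHT in 5 of 5 flox/+ lines, and with the line as a block 0 of 8 members were called. The members' log2 differences ran from -0.89 (Adh1) to 0.45 (Cyp26b1). Between flox/+ and +/+ organoids of the second set 0 of 8 members were called (0.113% of all genes), with differences from -0.49 (Cyp26b1) to 0.24 (Lrat). Fetal spheroids and adult organoids, compared as flox/+ cultures that both received 4-OHT, differed in 6 of 8 members (47.9% of all genes). Eif4g2 itself was called lower in these spheroids, at means of 459 and 666 CPM without overlap (log2 -0.56 ± 0.17 SE). Its part in the members' values was not tested. Adh1 (11.1-fold), Lrat (8.12-fold), Rbp2 (6.03-fold), Bco1 (3.51-fold) and Aldh1a1 (2.98-fold) were lower in spheroids and Cyp26b1 was 2.10-fold higher, while Dhrs3 was 39.1 ± 5.72 CPM (SD, n = 5) and 38.4 ± 5.01 CPM (SD, n = 4). Beside these values the enterocyte sum was 84.6 to 3260 CPM in the spheroids and 3566 to 7131 CPM in the organoids without overlap, with 2 of 9 markers called lower in spheroids. The stromal sum was 2.41 to 159 CPM against 0.149 to 0.954 CPM, with 3 of the 3 markers tested called higher, and the part of either in the members' values was not tested. The calls of Adh1, Rbp2 and Cyp26b1 there were lost without organoid culture 1 (edgeR adjusted p 0.0584, 0.0505 and 0.119). Adh1 was also lost without organoid culture 2 or spheroid line 3, and Cyp26b1 without organoid culture 2 or 4 or spheroid line 1, 2 or 3. Without spheroid line 5 the log2 differences were larger for Adh1 (-4.34 in place of -3.47), Rbp2 (-3.21 in place of -2.59) and Lrat (-3.78 in place of -3.02).

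**Figure D3:**
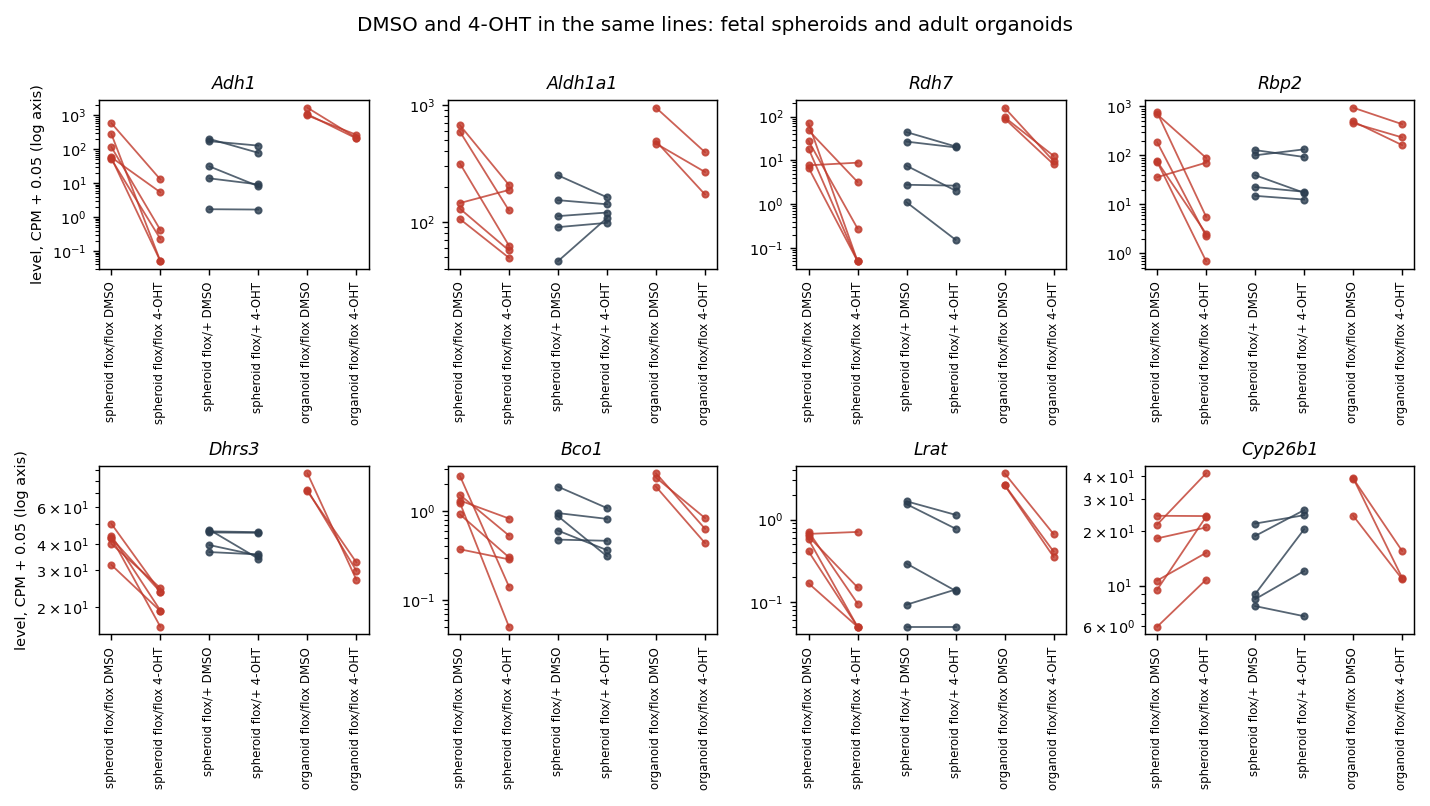
CPM + 0.05 (log scale) of each member in organoid and spheroid lines with DMSO and with 4-OHT, the arms of 1 line joined by a line. In the 3 organoid lines all 8 members are lower with 4-OHT, and Adh1, Dhrs3 and Bco1 are lower in each of the 6 flox/flox spheroid lines.

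In organoids that kept Eif4g2, more members were called lower as the dose of A-485 rose. The 3 doses share 1 DMSO arm, so the comparisons are not independent of one another. At 3 uM 1 of 8 members was called lower, where 19.2% of all genes were called in either direction and 8.42% lower. With the line as a block 4 were called there (Lrat, Adh1, Rdh7 and Rbp2), but these shares are those of the fit without a block. At 5 uM 5 members were called lower (49.6% of all genes in either direction, 25.1% lower). At 10 uM 8 of 8 were (62.0% of all genes in either direction, 32.6% lower). The members' median log2 difference was -1.04, -1.65 and -5.81, or -4.75 at 10 uM with Cyp26b1 at its bound. In each of 4 lines Adh1, Aldh1a1 and Rdh7 were lower at every step from DMSO to 10 uM, Rbp2 and Dhrs3 did so in 3 lines, Lrat and Cyp26b1 in 2, and Bco1 in 1.

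Adh1 was 667, 1490, 1320 and 1182 CPM with DMSO, 140, 494, 700.0 and 430 CPM at 3 uM, 108, 349, 472 and 188 CPM at 5 uM and 5.12, 19.6, 16 and 3.26 CPM at 10 uM, in lines 1 to 4. Line 1, the +/+ line, was the lowest at the first 3 of these doses, and at 10 uM all lines lay far below their own value at 5 uM (105-fold lower than DMSO in the fit). Rdh7 was 40.2, 116, 95.0 and 89.1 CPM with DMSO and 0.123, 1.27, 0.792 and 0.479 CPM at 10 uM, 124-fold lower. Rbp2 went from 267, 568, 469 and 464 CPM to 11.5, 26.2, 17.1 and 3.93 CPM, 30.1-fold lower. Aldh1a1, at 307, 889, 628 and 549 CPM with DMSO, was 202, 556, 622 and 375 CPM at 3 uM (log2 -0.45 ± 0.56 SE, not called) and was 10.9, 53.4, 28.6 and 6.61 CPM at 10 uM, 23.9-fold lower (log2 -4.58, or -5.26 without the 10 uM arm of line 2).

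Lrat was the member called at 3 uM. It was 5.85, 7.08, 5.05 and 7.09 CPM with DMSO and 0.397, 2.85, 1.60 and 0 CPM at 3 uM (5.18-fold lower), where 0 reads allow up to 0.261 CPM. That call was lost without each of 6 of the 8 libraries, the DMSO arms of all 4 lines and the 3 uM arms of lines 1 and 3 (edgeR adjusted p up to 0.0986), and the difference was -3.23 in place of -2.37 without the 3 uM arm of line 2. At 3 uM Rdh7 was called without the DMSO arm of line 1 and Rbp2 without the 3 uM arm of line 3. At 10 uM Lrat had 3 reads over 4 libraries, a ratio of DMSO to A-485 of 129 (95% exact Poisson interval 44.1 to 624, counting error only). Cyp26b1 was 4.55, 1.62, 2.01 and 8.14 CPM with DMSO, 2.92 to 6.27 CPM at 3 uM and 0.166 to 1.85 CPM at 5 uM, and had 0 reads in 4 of 4 libraries at 10 uM, at least 20-fold lower against 3 reads per library. The Cyp26b1 call at 5 uM was lost without the DMSO arm of line 4 (edgeR adjusted p 0.108) and with the line as a block (0.0535), while Aldh1a1 and Dhrs3 were called with that block.

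Dhrs3 and Bco1 had the smallest folds of the 8 members at 10 uM. Dhrs3 was 37.2, 47.1, 50.5 and 46.0 CPM with DMSO and 15.7, 7.92, 9.56 and 6.70 CPM at 10 uM, 4.57-fold lower. Bco1 was 2.28, 1.62, 1.31 and 1.97 CPM against 0.555, 0.578, 0.170 and 0.192 CPM, 4.72-fold lower. The Rbp2 call at 5 uM was lost without each of 5 libraries, the DMSO arms of lines 2, 3 and 4 and the 5 uM arms of lines 1 and 4 (edgeR adjusted p up to 0.0797). Beside these values the enterocyte sum was 4586 to 9270 CPM with DMSO, 1990 to 4509 at 3 uM, 1659 to 4012 at 5 uM and 215 to 399 CPM at 10 uM, where 8 of 9 markers fell, and pan-epithelial markers (5 genes) were 4613 to 4942 CPM with DMSO and 7857 to 9796 CPM at 10 uM. The part of these in the members' values was not tested.

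**Figure D4:**
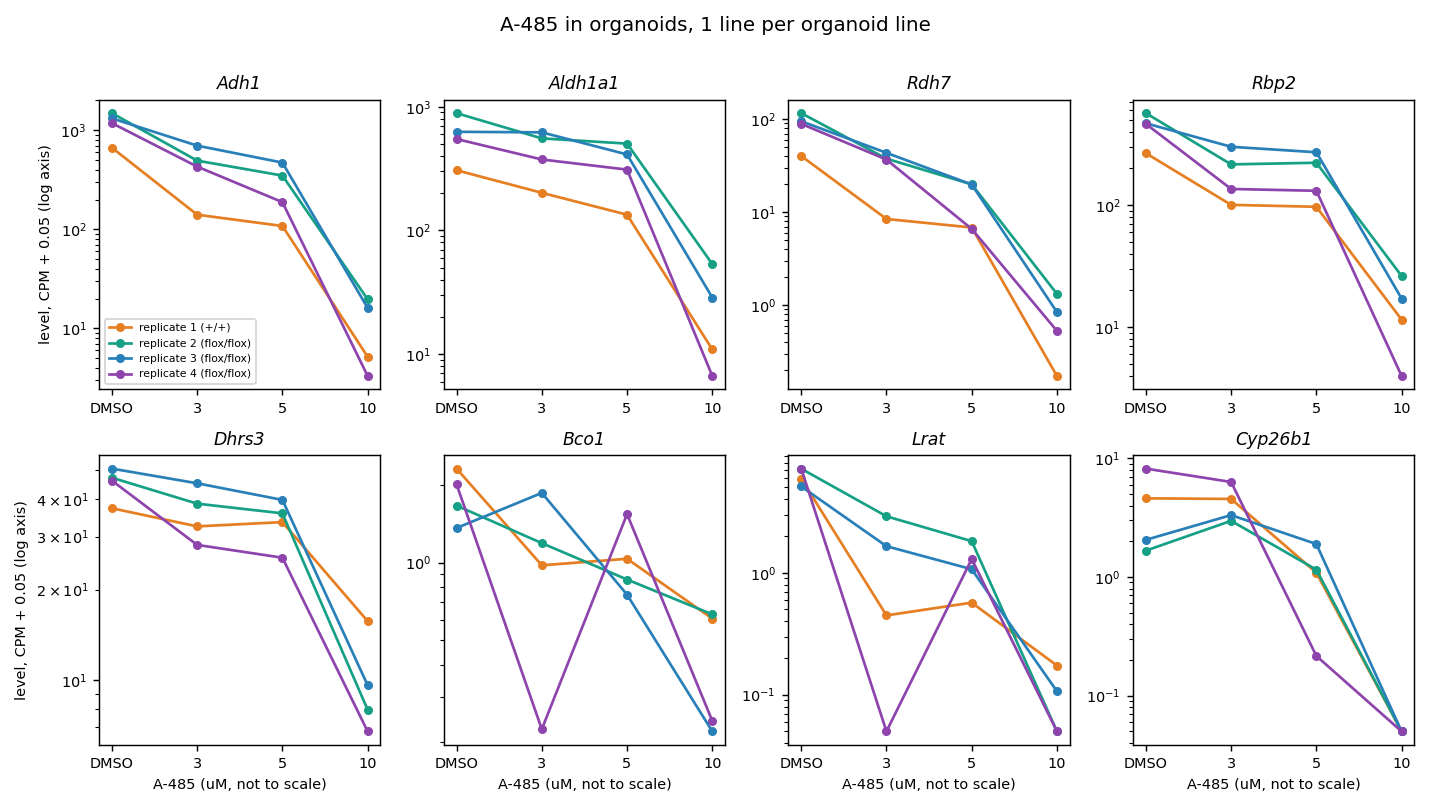
CPM + 0.05 (log scale) of each member in 4 organoid lines against the A-485 dose in uM, with DMSO first and the doses evenly spaced. Adh1, Aldh1a1 and Rdh7 are lower at every step in 4 of 4 lines, and Cyp26b1 has no reads at 10 uM.

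The wider pathway was read from 44 other retinoid genes, of which 29 to 37 had enough reads in each comparison. After deletion of both copies, called falls outnumbered called rises in each of 7 comparisons: 10 and 3 in Rosa26(CreER) crypts, 12 and 5 in their villi, 15 and 3 in Vil1(CreER) crypts, 12 and 6 in their villi, 19 and 1 and then 11 and 5 in the organoid sets, and 10 and 1 in flox/flox spheroids. Over all genes called falls also outnumbered rises in 6 of the 7, the first organoid set being the exception. The shares of all genes that fell and rose were 11.6% and 8.63% in Rosa26(CreER) crypts, 18.2% and 15% in their villi, 17.7% and 11.6% in Vil1(CreER) crypts, 21.6% and 20.9% in their villi, 17.2% and 18.2%, then 24.3% and 22.6% in the organoid sets, and 10% and 9.01% in flox/flox spheroids. The median log2 difference of the list ran from -1 in spheroids to 0.50 in Rosa26(CreER) crypts, where its sign differs from that of the counts. At 3, 5 and 10 uM A-485 it was 10 falls and 2 rises, 18 and 6, and 21 and 4 of 29 genes, beside 8.42% and 10.8%, 25.1% and 24.4%, and 32.6% and 29.4% of all genes.

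Among the better-expressed of these genes (mean of at least 1 CPM) the largest called falls in villi were in Rdh16 and Rdh16f2, retinol dehydrogenases of the same family as Rdh7, and in Rbp4, the carrier of retinol in blood. Rdh16 averaged 17.6 CPM in flox/+ and 1.53 CPM in flox/flox Rosa26(CreER) villi (11.7-fold) and 22.7 against 0.584 CPM in Vil1(CreER) villi (38.3-fold). Rdh16f2 fell 12.6-fold and 12.8-fold in the same comparisons, and Rbp4 5.45-fold and 13.4-fold. Rdh genes that are near-identical copies could share reads, so the split between them is uncertain. Stra6l, a receptor for Rbp4, fell 4.56-fold in Rosa26(CreER) crypts, 15.5-fold and 3.82-fold in the organoid sets, and Ttr, the plasma partner of Rbp4, fell 8.19-fold in Rosa26(CreER) crypts and 52.2-fold in flox/flox spheroids. Ttr was also the 1 gene of this list whose 4-OHT effect differed between flox/flox and flox/+ spheroids (log2 -5.57 ± 0.85 SE). Cd36 rose in Rosa26(CreER) crypts (log2 2.79 ± 0.70 SE), a call lost in 7 of 14 alternatives, and fell in flox/flox spheroids (log2 -5.17 ± 1.30 SE). Rbp7 fell in Vil1(CreER) crypts and in both organoid sets (log2 -3.48, -3.28 and -1.83). Rdh1 fell in flox/flox spheroids (log2 -6.54) and in Vil1(CreER) crypts (log2 -4.46, a call lost in 4 of 11 alternatives). Adh4, another alcohol dehydrogenase, fell 2.18-fold in Rosa26(CreER) villi and rose 2.83-fold in Vil1(CreER) villi. With A-485 it averaged 71.1 CPM with DMSO and 15.4, 5.65 and 0.238 CPM at the 3 doses. Aldh1a3, another retinaldehyde dehydrogenase, rose from 0.115 to 1.21, 1.37 and 1.09 CPM, a call lost at 3 uM without the 3 uM arms of lines 1 and 3 and the DMSO arms of lines 2, 3 and 4, each in turn (edgeR adjusted p up to 0.127).

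Of the 6 retinoic acid and retinoid X receptors, Rarg rose in all 7 deletion comparisons and at each dose of A-485. Rarg, Rxra and Rarb, and Isx, Tgm2 and Cdx1 among the responsive genes, were singled out after their values were seen. Rarg averaged 2.04 against 5.40 CPM in Rosa26(CreER) villi, 2.40 against 8.05 CPM in Vil1(CreER) villi and 11.5 against 31.8 CPM in the first organoid set, and the log2 rises ran from 1.22 ± 0.24 SE (spheroids) to 2.25 ± 0.46 SE (Vil1(CreER) crypts). In Rosa26(CreER) crypts the rise (1.68 ± 0.46 SE) was not called with the Ddx3y class as a term or without each of flox/flox replicates 1, 3 and 4 and flox/+ replicates 1, 2 and 5 (edgeR adjusted p up to 0.0888), and at 3 uM A-485 (0.86 ± 0.27 SE) without either arm of lines 1 and 2 (up to 0.112). Rxra fell in Rosa26(CreER) villi, both Vil1(CreER) compartments, the first organoid set and at 10 uM A-485, by 0.56 (organoids) to 1.40 (A-485) on the log2 scale. Rarb, scarce throughout and also on the responsive list, fell in the organoid sets (log2 -2.03 ± 0.24 SE and -0.80 ± 0.29 SE). It also fell at 5 and 10 uM A-485 (-4.23 and -5.40). Rarb was not called in Rosa26(CreER) crypts (1.80 ± 0.58 SE), in flox/flox spheroids (-0.56 ± 0.71 SE) or at 3 uM. The remaining tissue comparisons had too few Rarb reads to be tested.

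Genes known to respond to retinoic acid moved in different directions, with 1 to 4 of the 4 to 7 tested members of a list of 9 called in each deletion comparison. The share of all genes called there was 19.1% to 46.8%, and counts such as 1 of 4 in Rosa26(CreER) villi (33.2%) and 1 of 7 in flox/flox spheroids (19.1%) lie near it. Tgm2 fell 8.04-fold in Vil1(CreER) crypts, 2.65-fold in their villi, 14.1-fold and 11.6-fold in the organoid sets and 16.3-fold in flox/flox spheroids, where its effect differed from that in flox/+ lines (log2 -3.79 ± 0.43 SE). In Rosa26(CreER) tissue it was not called and the signs in crypts and villi were opposite (log2 -0.89 ± 0.31 SE in crypts and 2.00 ± 0.81 SE in villi). Isx, the repressor of Bco1, which also stands among the 44 other retinoid genes, rose in the 4 tissue comparisons, from 92.3 to 148 CPM and 130 to 298 CPM in Rosa26(CreER) crypts and villi and from 76.4 to 114 CPM and 105 to 180 CPM in Vil1(CreER) crypts and villi, and from 121 to 175 CPM in the second organoid set. Bco1 was called lower in each of those 5 comparisons. Bco1 also fell in organoids of the first set and in spheroids that lost both copies, where Isx was 172 CPM with DMSO and 176 CPM with 4-OHT, and 147.5 and 149 CPM (log2 0.03 ± 0.15 SE and 0.02 ± 0.28 SE), and at 10 uM A-485 both Isx (7.62-fold) and Bco1 fell. The part of Isx in the Bco1 values was not tested. Cdx1 fell in Rosa26(CreER) crypts (log2 -0.63 ± 0.12 SE), Vil1(CreER) crypts (-0.35 ± 0.09 SE) and the first organoid set (-0.81 ± 0.14 SE). Its call was lost with the Ddx3y class as a term in the first and in 5 of 11 alternatives in the second. Cdx1 was not called in either set of villi, the second organoid set or flox/flox spheroids. It also fell at 5 and 10 uM A-485 (-1.10 and -4.49).

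Across the 21 group means the members did not form 1 block. Spearman's rho between pairs of members ran from 0.875 (Aldh1a1 and Rdh7) to -0.547 (Lrat and Cyp26b1), a description only, since groups share mice, lines and sequencing sets. Among 12116 genes with a group mean of at least 5 CPM somewhere, the closest to Rbp2 was Fabp1 (0.960), to Rdh7 Gramd3 (0.978), to Aldh1a1 Fmo5 (0.962), to Adh1 Tkfc (0.947), to Lrat As3mt (0.955), to Dhrs3 Acot13 (0.887), to Bco1 Dao (0.877) and to Cyp26b1 Sftpd (0.926). Adh1, Dhrs3 and Cyp26b1 had their highest mean in DMSO organoids of the first set (1255, 76.8 and 34.0 CPM), Aldh1a1 and Bco1 in Vil1(CreER) flox/+ villi (1144 and 4.45 CPM), and Rdh7, Rbp2 and Lrat in Rosa26(CreER) flox/+ villi (442, 6249 and 54.1 CPM). When the 21 groups were ordered by a member's mean, 0 to 3 of the 20 neighbouring pairs did not overlap. Ordering by mean puts close groups side by side, so this overlap does not show that neighbours are alike.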

How the data were processed

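Poly(A) RNA was sequenced as directional dUTP libraries, per the labels' protocols. The authors deposited raw read counts per gene in 4 tables. Reads were aligned with HISAT2 2.0.5 to GRCm38 (mm10), per the submitters' processing notes. The counting program, its annotation and its strand setting are not given in the sources used here, so overlapping and antisense genes may share reads. Groups follow the labels, and cultures in WENR medium, which the protocols mention, were not analysed here.

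Each comparison was fitted to the counts of all genes with edgeR 4.0.16 (R 4.3.3, limma 3.58.1): the groups' filterByExpr minimum, scaling by TMM, quasi-likelihood F-tests (robust) and Benjamini-Hochberg adjustment over all genes tested, called at an adjusted p under 0.05. Organoids of the second set, spheroids and the A-485 series were fitted with all their groups, which share 1 estimate of spread. Standard errors are the log2 difference over the square root of F. Levels are TMM-scaled CPM over 92 libraries, and 0.05 CPM was added in plots only. A library at 0 was limited by 3 reads, counting error only. Totals were 8652040 to 37611126 counts, and values under 1 CPM rest on few reads. Scripts were tested on simulated data. Alternatives were DESeq2 size factors, DESeq2 1.42.0, no low-count filter, a replicate block, a Y-linked transcript term (Ddx3y above 1 CPM) in Rosa26(CreER) tissue, only the 2 groups compared, and leaving out each library. Figures were drawn in Python 3.11.15.

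Same-numbered samples came from the same animal or line, per the labels, in the villus against crypt comparisons of flox/+ mice, the first organoid set, spheroids and the A-485 series. Their deviations from group means correlated at 0.318 to 0.501 in the first organoid set. The values were 0.385 to 0.783 in flox/flox and 0.626 to 0.857 in flox/+ spheroids. They were 0.0556 to 0.321 in the A-485 series and -0.00247 to 0.296 between villi and crypts. The main fits did not use these pairs, so their calls are those of unpaired tests. Fits with the line or animal as a block are given as alternatives. In the other comparisons samples share only a number. Vil1(CreER) flox/flox crypts of replicate 3 came from the animal of villus replicate 4.

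The members and gene lists were chosen with earlier results of these data known. Named were all 8 members, Eif4g2, up to 3 called genes per comparison from the lists of other retinoid genes and receptors and from the list of responsive genes (largest change at a mean log2 CPM of at least 0), and the 3 genes closest to each member over group means of at least 5 CPM. Rarg, Rxra, Rarb, Isx, Tgm2, Cdx1 and the repeated comparisons of listed genes were named after their values were seen. Promoters are RefSeq's on GRCm38.p6 and matched 8 of 8 members.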

Additional observations from a re-analysis of the deposited data

Results flagged for a closer look

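Over 8 members in the groups of 4 to 6 libraries, 144 sets of values were examined, and in 9 the highest or lowest library stood apart from the others by Dixon's test, which chance gives in about 5% of sets. Among flox/flox samples these were Rdh7 at 347.2 CPM in Rosa26(CreER) villi of replicate 5 (the others 12.08 to 87.97), Rbp2 at 1032 CPM in Rosa26(CreER) crypts of replicate 1 (the others 268 to 306.9), and Dhrs3 at 19.93 CPM in Vil1(CreER) villi of replicate 1 (the others 29.39 to 32.84). With 4-OHT, spheroid line 3 held 8.853 CPM of Rdh7 (the others 0 to 3.18) and line 1 held 0.6599 CPM of Lrat (the others 0 to 0.1006). Among flox/+ samples they were Aldh1a1 at 391.6 CPM in Rosa26(CreER) villi of replicate 3 (the others 992.9 to 1218), Rdh7 at 66.83 CPM in Vil1(CreER) crypts of replicate 4 (the others 27.56 to 30.1), Lrat at 62.94 CPM in Vil1(CreER) villi of replicate 4 (the others 42.88 to 45.26), and Cyp26b1 at 0.5986 CPM in Rosa26(CreER) crypts of replicate 3 (the others 0.1199 to 0.2381). The Rosa26(CreER) villus library of replicate 3 had a mitochondrial share of 24.46% of counts, the highest of its group, whose lowest was 2.737%, and the part of that share in its Aldh1a1 level was not tested.

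The effect of a deletion was called different between tissues or genotypes for 5 values by edgeR's interaction test. Of all genes, 11.5% were called in this test in Rosa26(CreER) mice, 15.5% in Vil1(CreER) mice and 1.62% in spheroids. The villus minus crypt effect was -1.388 for Rbp2 and -1.349 for Dhrs3 in Rosa26(CreER) mice, and 3.243 for Adh1 and 2.261 for Rdh7 in Vil1(CreER) mice, all on the log2 scale. The flox/flox minus flox/+ effect of 4-OHT in spheroids was -0.8593 for Dhrs3. Leaving out Rosa26(CreER) flox/flox crypts of replicate 1 moved the Rbp2 value to -0.75. With the animal as a block neither Rosa26(CreER) value was called. The Rbp2 call was lost without each of 12 libraries in turn, and the spheroid Dhrs3 call without each of 9 of 22.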

How the results depend on the processing

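Of 2132 alternative values for 142 log2 differences, 1928 kept their direction and side of the threshold. Of 1003 alternatives to the 73 differences that were called, 89 lost the call and 0 changed sign. Sign changes occurred in 18 uncalled differences. In Rosa26(CreER) crypts Adh1 was 0.271 with the Ddx3y term, Rbp2 ran from -0.00192 to 0.885 as each library was left out, and Dhrs3 from -0.219 to 0.113, with -0.0253 with the replicate block and -0.0561 with the Ddx3y term. Left-out libraries moved the villus minus crypt effect of Rosa26(CreER) mice from -0.363 to 0.294 for Adh1 (0.000657 with no low-count filter, 0.523 with the block), from -1.94 to 0.07 for Rdh7 and from -1.45 to 0.312 for Cyp26b1, and that of Vil1(CreER) mice from -0.205 to 0.382 for Rbp2 (-0.269 with the block). In the second organoid set the flox/flox against flox/+ value ran from -0.109 to 0.327 for Aldh1a1. There, flox/+ against +/+ ran from -0.281 to 0.0575 for Adh1, -0.271 to 0.221 for Rdh7 (-0.0176 with the block), -0.0268 to 0.131 for Dhrs3, -0.145 to 0.0191 for Bco1 and -0.756 to 0.0253 for Cyp26b1. In flox/+ spheroids Aldh1a1 ran from -0.261 to 0.333 (0.138 with the block) and Rbp2 from -0.8 to 0.316. The spheroid genotype difference of Cyp26b1 ran from -0.0888 to 0.354, its value at 3 uM A-485 from -0.233 to 0.61, and Dhrs3 in spheroids against organoids from -0.0724 to 0.084 (-0.0664 with the block).

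The number of members called was 4 in Rosa26(CreER) crypts with DESeq2 (2 with edgeR), and 1 with no filter and 0 with the block for the Rosa26(CreER) villus minus crypt effect (2 in the edgeR fit). In flox/flox spheroids it was 2 with no filter, 8 with the block and 2 with only the 2 groups compared (5), and 0 with no filter and 2 with the block for the spheroid genotype difference (1). At 3 uM A-485 it was 3 with DESeq2, 4 with the block and 2 with only the 2 groups (1), and in spheroids against organoids 3 with no filter (6). With 1 library left out it ran from 2 to 4 in Rosa26(CreER) crypts, 4 to 7 in their villi, 5 to 8 in Vil1(CreER) crypts, 1 to 2 for the Rosa26(CreER) villus minus crypt effect, 2 to 6 in flox/flox spheroids, 0 to 1 for the spheroid genotype difference, 0 to 1 at 3 uM, 3 to 5 at 5 uM and 3 to 6 in spheroids against organoids. The cause of these shifts was not tested. Where samples share only a number, the block brought calls for Rdh7 (-3.14) and Cyp26b1 (1.52) in Rosa26(CreER) villi and Aldh1a1 (-0.77) in Vil1(CreER) crypts, and lost that of Adh1 in the second organoid set (-1.13, edgeR adjusted p 0.0562).

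Over all genes, calls were 2967 in place of 4504 with the Ddx3y term in Rosa26(CreER) villi. For the Rosa26(CreER) villus minus crypt effect 1904 became 2884 with DESeq2, 1221 with no filter and 777 with the block, and 1079 to 3068 without 1 library. For flox/+ against +/+ organoids 16 became 156, 60 and 4 in that order, and 1 to 32. In flox/flox spheroids 2864 became 6425 with the block, and for the spheroid genotype difference 243 became 603, 123 and 2758, and 131 to 362. Without 1 library 3198 became 1937 to 4732 in Rosa26(CreER) crypts, 4960 became as few as 3223 in Vil1(CreER) crypts, and 2766 became 1456 to 3425 for the Vil1(CreER) villus minus crypt effect. With CPM of the library total, 35 of 168 member means moved by more than the replicate SD. Bco1, Cyp26b1 in tissue and Lrat in spheroids lay at or near the limit that depth sets.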
